A study of Mus musculus with 6 samples.

Results

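The genes described here are 33 genes of the unfolded protein response and the integrated stress response, read from the organ of Corti of mice that lack pejvakin and of wild-type mice. They were chosen by symbol from a fixed list, as the probe sets whose single platform gene symbol is on it. All 33 were found, on 35 of the 21789 probe sets with 1 symbol, and they were tested among 19938 genes, 1 probe set per gene. By role they comprised 14 chaperones and folding enzymes of the endoplasmic reticulum (ER), 6 genes of ER-associated degradation, 6 stress sensors and transcription factors, and 7 targets of the kinase PERK and the transcription factor ATF4.

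The samples were total RNA of organ of Corti at postnatal day 15, on the background C57BL/6J-129/Sv. The organ of Corti is the strip of sensory hair cells and supporting cells in the cochlea. There were 3 arrays of homozygous Pjvk-/- tissue, called knockout, and 3 of Pjvk+/+ tissue, called wild-type. No treatment or sound exposure is named in the labels for either group, and the labels do not say how many animals went into a sample or of which sex, nor that samples came from separate animals. The p-values therefore capture only sample-to-sample spread, part or all of which may be technical. The labels also do not say how the Pjvk allele was made. The comparison asks how the levels of stress response transcripts in this tissue differ with the loss of pejvakin.

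The unfolded protein response matches the folding capacity of the ER to its load. Unfolded proteins activate the membrane sensors IRE1 (gene Ern1), PERK (Eif2ak3) and ATF6. IRE1 splices the messenger of Xbp1, and XBP1 and ATF6 then drive genes for chaperones and for the degradation of misfolded proteins. PERK phosphorylates the initiation factor eIF2, which lowers translation in general and favours that of ATF4. ATF4 drives genes of amino acid supply, and with CHOP (Ddit3) genes such as Trib3 and Ppp1r15a. Other kinases feed into the same ATF4 branch when amino acids or haem are short, so that this branch is called the integrated stress response. Splicing of Xbp1, phosphorylation and translation are not read by a gene-level array. The data here are transcript levels only.

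Sequences around the genes' starts are shown because many of these genes hold a known response element of their branch there. RefSeq promoter windows of 300 bases on GRCm38.p6, 250 before to 50 after a start, matched 29 of the 33 genes. The ER stress response element, to which ATF6 and XBP1 are known to bind with NF-Y, was searched on both strands as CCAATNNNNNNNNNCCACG, and its second form as ATTGGNCCACG. The first form occurred in the windows of 9 of the 17 chaperone and degradation genes that had one, against 0.119% of all 32851 windows. The second form occurred in another 2 of those 17, Dnajb11 and Herpud1, against 0.0365% of all windows. None of the 7 ATF4 target genes held either form. A shorter element of XBP1 and ATF6, TGACGTGG, occurred in no member and in 0.676% of all windows. A match is only these letters in this window. The window of Hspa5 is printed whole, and the others with 12 bases on each side of the match, in the direction of the gene, with the element in capitals. Genes whose capitals begin with CG carry it on the opposite strand.
Hspa5, chr2:34771840-34772139, plus strand: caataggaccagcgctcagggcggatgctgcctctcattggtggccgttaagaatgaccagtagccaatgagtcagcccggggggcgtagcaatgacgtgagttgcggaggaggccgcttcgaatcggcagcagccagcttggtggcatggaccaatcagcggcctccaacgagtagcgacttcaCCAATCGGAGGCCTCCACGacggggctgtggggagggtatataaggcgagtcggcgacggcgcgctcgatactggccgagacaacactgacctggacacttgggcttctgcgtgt
Hsp90b1, chr10:86705626-86705668, minus strand: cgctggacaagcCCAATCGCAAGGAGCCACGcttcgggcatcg
Hsp90b1, chr10:86705521-86705563, minus strand: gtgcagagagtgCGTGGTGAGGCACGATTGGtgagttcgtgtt
Dnajc3, chr14:118937815-118937857, plus strand: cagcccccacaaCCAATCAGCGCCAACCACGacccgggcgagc
Pdia6, chr12:17266479-17266521, plus strand: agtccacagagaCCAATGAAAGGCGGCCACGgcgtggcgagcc
Canx, chr11:50325788-50325830, minus strand: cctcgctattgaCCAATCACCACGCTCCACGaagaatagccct
Calr, chr8:84847063-84847105, minus strand: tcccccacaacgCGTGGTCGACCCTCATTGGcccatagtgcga
Creld2, chr15:88819508-88819550, plus strand: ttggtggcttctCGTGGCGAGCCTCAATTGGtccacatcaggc
Syvn1, chr19:6046520-6046562, plus strand: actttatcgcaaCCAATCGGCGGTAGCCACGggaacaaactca
Derl3, chr10:75893230-75893272, plus strand: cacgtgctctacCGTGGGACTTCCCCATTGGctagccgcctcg
Dnajb11, chr16:22857840-22857874, plus strand: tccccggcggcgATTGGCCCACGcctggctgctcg

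In Hspa5 the element lay at positions -65 to -47 from the start, in Syvn1 at -44 to -26 and in Pdia6 at -98 to -80. The C/EBP-ATF response element, at which ATF4 is known to act, was searched as TGATGNAA on both strands. It occurred in 3 of the 7 target genes, Asns, Trib3 and Chac1, and in the degradation gene Herpud1, against 3.97% of all windows. It did not overlap the other elements. Herpud1 was thus the 1 member that held elements of both branches in its window, and its stretch is printed with both in capitals. The window of Asns is printed whole, with the element at positions -23 to -16.
Asns, chr6:7693160-7693459, minus strand: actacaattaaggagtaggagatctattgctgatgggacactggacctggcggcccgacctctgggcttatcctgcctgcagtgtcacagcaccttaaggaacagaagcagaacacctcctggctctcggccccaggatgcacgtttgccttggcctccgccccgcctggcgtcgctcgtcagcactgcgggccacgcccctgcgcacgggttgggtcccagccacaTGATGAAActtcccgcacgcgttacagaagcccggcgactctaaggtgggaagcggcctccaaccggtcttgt
Trib3, chr2:152344027-152344058, minus strand: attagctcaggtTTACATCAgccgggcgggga
Chac1, chr2:119351037-119351068, plus strand: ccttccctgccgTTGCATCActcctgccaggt
Herpud1, chr8:94386305-94386399, plus strand: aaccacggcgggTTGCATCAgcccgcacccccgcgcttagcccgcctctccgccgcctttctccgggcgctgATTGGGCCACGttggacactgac

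Deposited values were on a log2 scale, where a difference of 1 is 2-fold. The array medians ran from 6.66 to 6.69, and a microarray has no true zero. Knockout and wild-type were compared with limma over all 19938 genes, with p-values adjusted by the Benjamini-Hochberg method, with calls made at an adjusted p under 0.05. All differences below are log2 fold changes, knockout minus wild-type, with the standard error (SE) and 95% interval of that fit. Of all genes, 0.0351% were called in either direction. The targeted gene Pjvk read 4.42, 4.36 and 4.21 in the knockout and 4.75, 5.06 and 4.96 in the wild-type. That difference was -0.59 (limma adjusted p = 0.105) and the groups did not overlap. Whether its probes cover the changed stretch of Pjvk could not be read from these files, so this is a limited check of the labels.

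None of the 33 genes was called, and the smallest adjusted p among them was 0.295, for Asns. At an unadjusted p under 0.05, 3 genes stood lower in the knockout, Asns, Herpud1 and Atf4, and none higher, against 6.66% of all genes lower and 5.74% higher. All knockout arrays lay below all wild-type arrays for 3 genes, Asns, Atf4 and Dnajb11, against 11.3% of all genes, and above them for none, against 6.59%. These counts were near or under the background. Of the 33 genes 22 were lower, against 53.8% of all genes, but 12 after quantile normalization and 15 after cyclic loess. The differences were small. Every one of the 33 was under 1.2-fold in size, as were 97.3% of all genes. The median size was 0.033 for the 33 genes and 0.07 for all genes, but 0.12 for the 7 PERK/ATF4 targets. The 95% interval lay within 1.2-fold in both directions for 27 of the 33 genes, against 61.1% of all genes, and within 1.5-fold for all 33. Neither the sizes nor the intervals were compared with genes of the same signal level. In whole tissue, fewer cells of a type and less RNA per cell cannot be told apart.

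**Figure D1:**
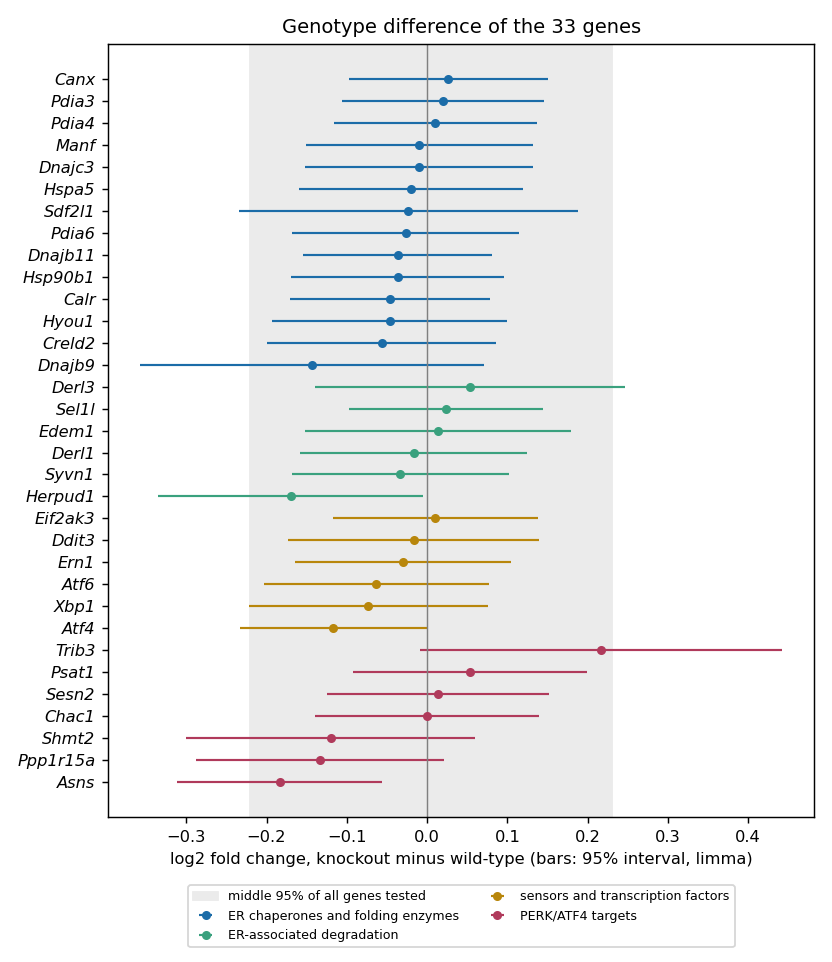
Log2 fold change of each of the 33 genes, knockout minus wild-type (x axis), with points for the estimate and bars for the 95% interval of the limma fit. Colours mark the role, and the grey band holds the middle 95% of all genes tested, from -0.22 to 0.23. All 33 points lie inside the band, and the interval excludes 0 for Herpud1, Atf4 and Asns.

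The chaperones of the ER lumen and membrane stood at almost the same level in both genotypes. Hspa5 encodes BiP, the central Hsp70 chaperone of the ER and the usual readout of the unfolded protein response. It read 10.77, 10.93 and 10.92 in the knockout and 10.90, 10.90 and 10.88 in the wild-type. Knockout replicate 1 was the lowest array, and the other 2 knockout arrays were above all wild-type arrays, so the groups overlapped. The difference was -0.020 (SE 0.06, 95% interval -0.16 to 0.12, adjusted p = 0.911), and the bound farthest from 0 corresponded to 1.12-fold. Hsp90b1, the ER form of Hsp90, differed by -0.037 (95% interval -0.17 to 0.096). Hyou1, a nucleotide exchange factor of BiP, differed by -0.047 (-0.19 to 0.099).

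Of the J-domain partners of BiP, Dnajb9 had the largest difference among the chaperones. It read 8.43, 8.62 and 8.53 in the knockout and 8.81, 8.47 and 8.73 in the wild-type. Wild-type replicate 2 lay inside the knockout range. The difference was -0.14 (SE 0.09, 95% interval -0.36 to 0.07, adjusted p = 0.543), and it was -0.24 without wild-type replicate 2 (adjusted p = 0.227) -0.07 without wild-type replicate 1, and -0.084 after quantile normalization. Dnajb11 read 9.27, 9.26 and 9.28 in the knockout and 9.34, 9.29 and 9.29 in the wild-type arrays. These groups did not overlap, by the smallest step of the deposited values, and the difference of -0.037 had an adjusted p of 0.787. Dnajc3, which also inhibits PERK and its sister kinases, differed by -0.010 (95% interval -0.15 to 0.13). Its 2 probe sets held identical values in every array.

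The disulfide isomerases and lectin chaperones were as close. Pdia3, the partner of calnexin and calreticulin, differed by 0.020, Pdia4 by 0.010 and Pdia6 by -0.027, with all of their 95% intervals between -0.17 and 0.15. A second probe set of Pdia4 differed by -0.043 (SE 0.08). Canx, the membrane lectin calnexin, differed by 0.027, and Calr, its soluble relative calreticulin, by -0.047. The remaining members of this role are small secreted or luminal proteins that are strongly induced in stressed cells. Among these, Sdf2l1 differed by -0.023 (SE 0.09), the cytoprotective factor Manf by -0.010 (SE 0.06) and Creld2 by -0.057 (SE 0.06). Over the 14 genes the median was -0.025, against -0.010 over all genes, with 11 lower and 3 higher. That lean depended on the scaling. Only 3 of the 14 were lower after quantile normalization and 4 after cyclic loess, with medians of 0.011 and 0.016.

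The genes of ER-associated degradation, which retrotranslocates misfolded proteins to the proteasome, held 1 member with a larger difference. Herpud1 encodes a membrane protein that organizes the degradation complex. It read 9.79, 10.02 and 9.86 in the knockout and 10, 10.06 and 10.12 in the wild-type. Knockout replicate 2 reached into the wild-type range. The difference was -0.17, or 1.13-fold lower (SE 0.07, 95% interval -0.33 to -0.0054, unadjusted p = 0.0444, limma adjusted p = 0.389). It was -0.12 without knockout replicate 1 and -0.24 without knockout replicate 2, with adjusted p-values from 0.213 to 0.910 over the alternatives.

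The adaptor and ligase of the same complex were nearer to 0. Sel1l, the adaptor, differed by 0.023 (95% interval -0.097 to 0.14) and Syvn1, the ligase Hrd1, by -0.033 (-0.17 to 0.10). Edem1, which extracts misfolded glycoproteins from folding, differed by 0.013 and Derl1, a subunit of the exit channel, by -0.017. Derl3, its relative of secretory cells, read 6.50, 6.51 and 6.46 in the knockout and 6.24, 6.55 and 6.52 in the wild-type, where replicate 1 stood apart at the low end. It differed by 0.053 (SE 0.08), and by -0.045 without wild-type replicate 1. The median over the 6 genes was -0.0017, with 3 lower and 3 higher, but 1 lower after quantile normalization or cyclic loess.

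**Figure D2:**
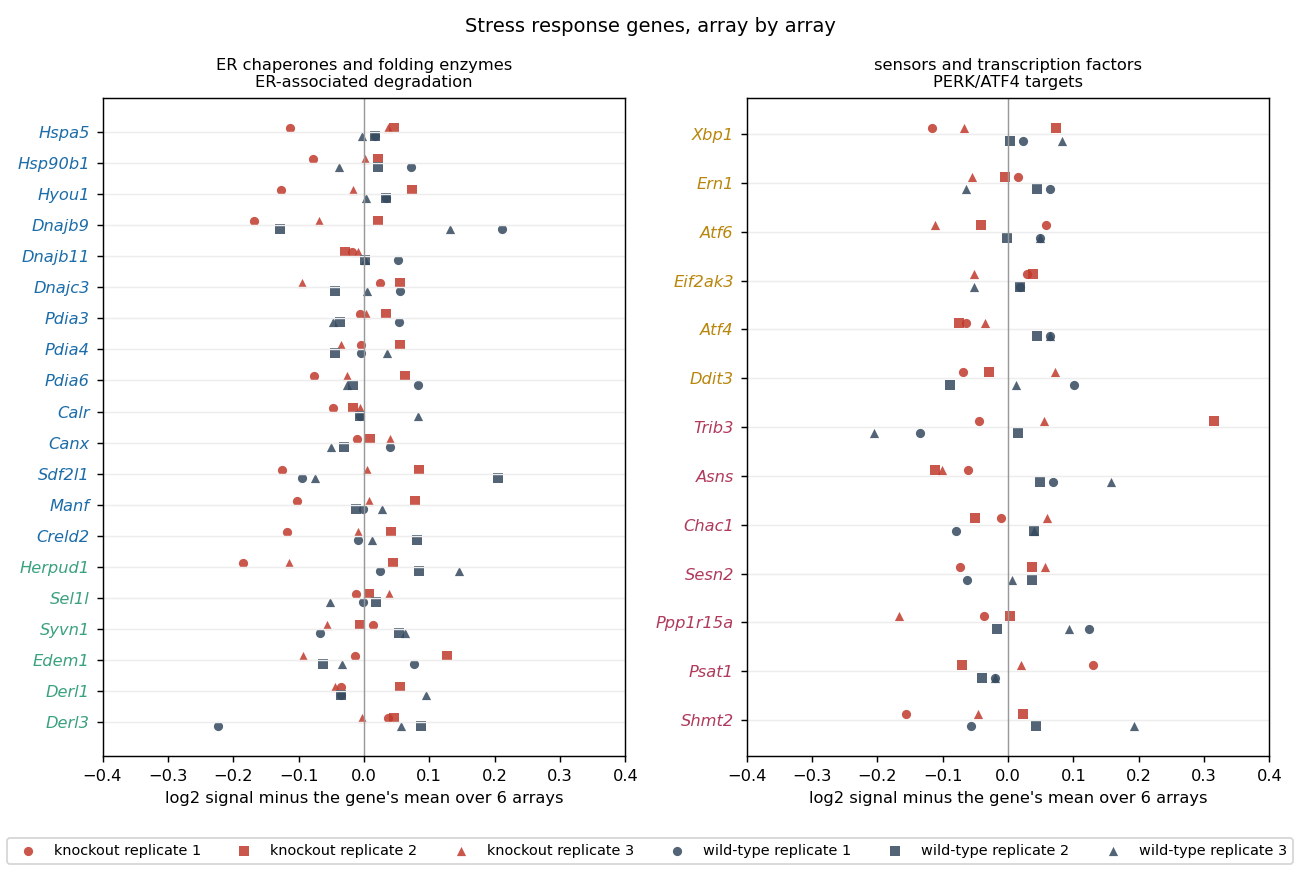
Log2 signal of each gene in each array, as the deviation from the gene's own mean over the 6 arrays (x axis), with knockout arrays in red, wild-type arrays in dark blue and marker shapes for replicates. Among the chaperones, knockout replicate 1 is the leftmost red point for 11 of 14 genes. Red and blue separate for Asns, Atf4 and, narrowly, Dnajb11.

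The sensors were close to equal. Ern1 read 7.36, 7.34 and 7.29 in the knockout and 7.41, 7.39 and 7.28 in the wild-type (difference -0.030, SE 0.06). Eif2ak3 read 8.59, 8.60 and 8.51 against 8.58, 8.58 and 8.51, a difference of 0.010 (SE 0.06). Atf6 read 8.85, 8.75 and 8.68 against 8.84, 8.79 and 8.84, a difference of -0.063 (SE 0.06). In each of these 3 genes the groups overlapped, and the 95% intervals together spanned -0.20 to 0.14.

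Among the transcription factors, Xbp1 read 9.18, 9.37 and 9.23 in the knockout and 9.32, 9.30 and 9.38 in the wild-type. Knockout replicates 1 and 3 were the lowest arrays and replicate 2 was among the wild-type arrays, and the difference was -0.073 (SE 0.07, adjusted p = 0.653). The probe set sums spliced and unspliced Xbp1. Ddit3, the gene of the pro-apoptotic factor CHOP, read 7.08, 7.12 and 7.22 against 7.25, 7.06 and 7.16, a difference of -0.017 (95% interval -0.17 to 0.14). The highest and the lowest of its 6 values were both wild-type.

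Atf4 was the 1 factor whose groups were apart. It read 8.44, 8.43 and 8.47 in the knockout and 8.57, 8.55 and 8.57 in the wild-type. The spread among the arrays of either genotype was smaller than the gap between the genotypes. The difference was -0.12, or 1.08-fold lower (SE 0.05, 95% interval -0.23 to -0.00064, unadjusted p = 0.0490, limma adjusted p = 0.401). With any 1 array left out, the difference stayed between -0.13 and -0.11 and its unadjusted p was 0.0684 to 0.119. The two-sided p of an exact permutation test was 0.1, the smallest that 3 arrays against 3 allow. The size depended on the scaling, with -0.06 both after quantile normalization and after cyclic loess, and -0.11 with the arrays centred on their medians. The median over the 6 sensors and factors was -0.047, with 5 lower, against 4 after quantile normalization and 5 after cyclic loess.

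The PERK/ATF4 targets differed in both directions, and none was called. Asns encodes asparagine synthetase, the classical target of ATF4 when amino acids are short. It read 10.27, 10.22 and 10.23 in the knockout and 10.40, 10.38 and 10.49 in the wild-type, so every knockout array was below every wild-type array. The difference was -0.18, or 1.14-fold lower (SE 0.06, 95% interval -0.31 to -0.06, unadjusted p = 0.0103, limma adjusted p = 0.295, exact permutation p = 0.1). Asns lay between -0.24 and -0.14 over all alternatives, with unadjusted p-values from 0.000681 to 0.0436 and adjusted p-values from 0.073 to 0.910.

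Trib3, a pseudokinase induced by ATF4 and CHOP that restrains both, had the opposite sign. It read 6.54, 6.90 and 6.64 in the knockout and 6.45, 6.60 and 6.38 in the wild-type. Knockout replicate 2 was far above the rest, and knockout replicate 1 lay below wild-type replicate 2. The difference was 0.22, or 1.16-fold higher, the largest in size among the 33 genes (SE 0.10, 95% interval -0.0092 to 0.44, unadjusted p = 0.0580, limma adjusted p = 0.413). It was 0.11 without knockout replicate 2 and 0.29 without knockout replicate 1.

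Chac1, a glutathione-degrading enzyme and one of the most inducible targets of this branch, read 6.95, 6.91 and 7.02 in the knockout and 6.88, 7.0 and 7.0 in the wild-type. Both means were 6.96, with a 95% interval of -0.14 to 0.14. Ppp1r15a, the phosphatase subunit GADD34 that reverses eIF2 phosphorylation, differed by -0.13 (SE 0.07, adjusted p = 0.445), and Sesn2, a stress-induced inhibitor of mTORC1, by 0.013 (SE 0.06). Of the serine and one-carbon enzymes, Psat1 differed by 0.053 (SE 0.06) and the mitochondrial Shmt2 by -0.12 (SE 0.08, adjusted p = 0.544). Shmt2 was at -0.053 without wild-type replicate 3, at -0.072 without knockout replicate 1, and at -0.33 after adjustment for the Y-linked signal described below (adjusted p = 0.910). Ppp1r15a was at -0.083 without knockout replicate 3 and at -0.063 after that adjustment. Of the 7 targets 3 were lower, 3 higher and Chac1 at 0, while their sizes had a median of 0.12, against 0.027 over the 20 chaperone and degradation genes and 0.07 over all genes.

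**Figure D3:**
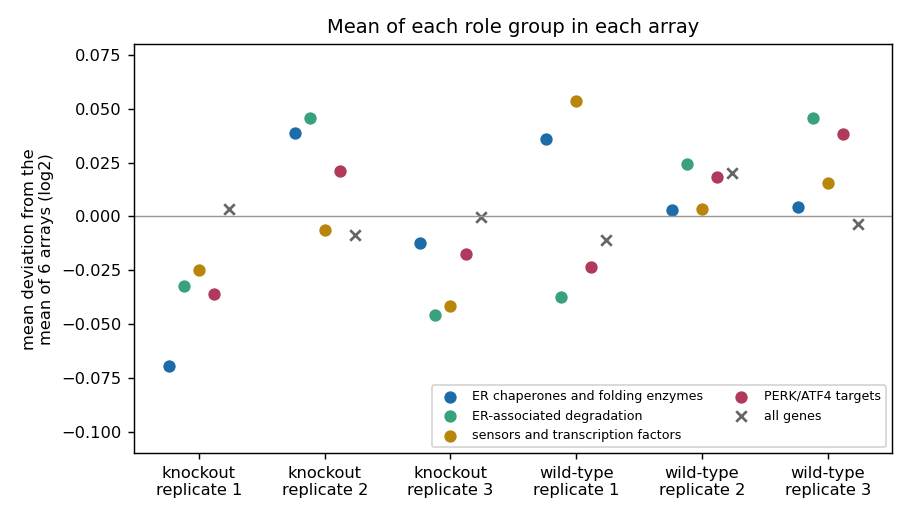
Mean deviation of each role group (coloured points) and of all genes (crosses) in each array from the mean of the 6 arrays, on the log2 scale (y axis). The chaperones range from -0.069 in knockout replicate 1 to 0.039 in knockout replicate 2, and both extremes of the chaperones are knockout arrays.

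Among the chaperones, the knockout arrays held both the lowest and the highest group mean. Their mean deviation was -0.069, 0.039 and -0.012 in knockout replicates 1, 2 and 3, and 0.036, 0.0029 and 0.0043 in wild-type replicates 1, 2 and 3. Knockout replicate 1 was the lowest knockout array for 11 of the 14 chaperones and knockout replicate 2 the highest for 11 of 14. Over all genes these shares were 31.0% and 29.0%. They were 34.8% and 17.4% over 23 other ER folding enzymes, and 13.6% and 9.1% over 22 genes of ER translocation. The pattern was thus not shared by these related lists. It was noticed in the values of the 14 chaperones and has no test. The genotype difference of the chaperones turned on knockout replicate 1. Without knockout replicate 1 the median of the chaperones was 0.0050 with 6 of 14 lower, and without knockout replicate 2 it was -0.051 with 12 of 14 lower. The SD among arrays was larger in the knockout for 7 of the 14 chaperones, such as Hspa5 (0.09 against 0.012), and larger in the wild-type for the other 7, such as Dnajb9 (0.18 against 0.095 in the knockout). The same arrays stood apart in markers of other cells, though not they alone. The mean deviation of osteoblast markers was 0.35 in knockout replicate 1 and that of fibrocyte and fibroblast markers 0.085, while skeletal muscle markers were at 0.21 in knockout replicate 2. Fibrocyte and fibroblast markers were at -0.081 in knockout replicate 3, and macrophage markers at -0.096 in knockout replicate 2. Osteoblast markers were at -0.155 in wild-type replicate 2. The part of these markers in the chaperone values was not tested.

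The ER branch was set against the ATF4 branch array by array. The mean deviation of the 20 chaperone and degradation genes minus that of the 7 targets was -0.022, 0.020 and -0.0046 for knockout, and 0.037, -0.0088 and -0.021 for wild-type. The knockout and wild-type ranges overlapped. The 11 chaperone and degradation genes with an ER stress response element of either form had a median of -0.033, with 9 lower and 2 higher. The 6 with a window but no element had a median of 0.012, with 2 lower and 4 higher. These counts depended on the scaling. After quantile normalization 3 of the 11 and 1 of the 6 were lower, with medians of 0.010 and 0.054. After cyclic loess 4 and 1 were, with medians of 0.015 and 0.053. Both medians rose with these scalings and that of the 11 stayed the lower, a gap that was not tested.

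Small differences went with level. With all genes cut into 10 groups of equal size by level, from the dimmest up, the median difference ran from 0.07 in group 3 to -0.057 in group 8. The chaperones included 9 genes in group 10, where the median was -0.043. Set against the median of their own level group, the chaperones had a median of 0.018, the degradation genes 0.021, the sensors and factors -0.009 and the targets -0.04.

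**Figure D4:**
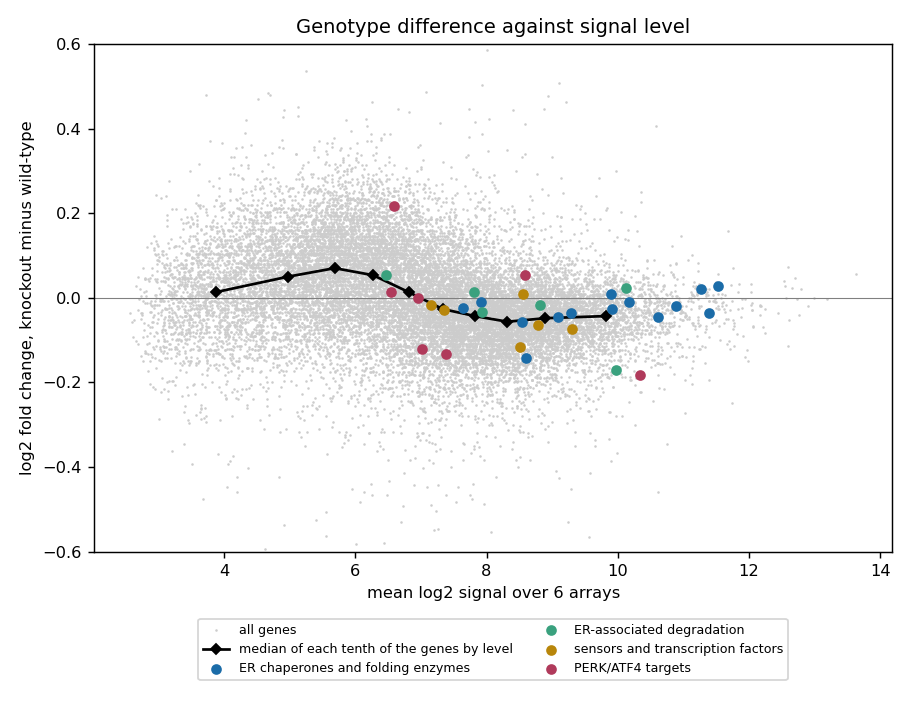
Log2 fold change, knockout minus wild-type (y axis), against the mean log2 signal over the 6 arrays (x axis), with all genes in grey, the 33 genes coloured by role and black diamonds for the median of each of 10 level groups. The y axis ends at 0.6 in both directions and leaves out 22 genes. Most chaperones lie near the black line, and Trib3 and Asns lie farthest from the median of their level group.

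Further genes of both pathways were read from lists of 151 measured genes in all, none of them among the 33. None was called. Of these 105 were lower and 43 higher, with a median of -0.037, against 53.8% of all genes lower and a median of -0.01. At an unadjusted p under 0.05 there were 9 lower and 5 higher, against 6.66% and 5.74% of all genes. Set against the median of their own level group, the 151 genes had a median of 0.0067. The medians of the lists then ran from -0.032 for other degradation genes to 0.05 for signalling targets. The lean depended on the scaling, with 61 lower and a median of 0.011 after quantile normalization and 63 lower and a median of 0.0086 after cyclic loess. The genes named below kept their sign under both and with centred arrays, but Ero1a went from -0.08 to -0.026 with cyclic loess, and Xpot, Prkcsh, Faf2, Ube2j1, Gars and Ostc shrank to between -0.094 and -0.067 under both, and list counts are for the values as deposited unless a normalization is named. Of 23 other folding enzymes 15 were lower (median -0.017), with Prkcsh, a subunit of glucosidase II, at -0.13 and Ero1a, the oxidase of disulfide formation, at -0.08. Of 22 genes of the translocation machinery 18 were lower (median -0.033). After quantile normalization 6 of the folding enzymes and 6 of the translocation genes were lower. Among the translocation genes, Ostc, a subunit of the oligosaccharyltransferase, had the smallest p. It read 8.67, 8.65 and 8.67 in the knockout and 8.83, 8.78 and 8.82 in the wild-type (difference -0.15, SE 0.05, adjusted p = 0.335).

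Of 21 other degradation genes 19 were lower, with a median of -0.077, and 12 were lower after quantile normalization or cyclic loess. The groups did not overlap for 5 of them, all lower, against 11.3% of all genes with every knockout array below every wild-type array. Rnf5, an ER ubiquitin ligase, differed by -0.19 (SE 0.07), Ube2j1, the conjugating enzyme that works with Hrd1, by -0.13 (SE 0.05), and Faf2, which recruits the ATPase p97 to the ER, by -0.14 (SE 0.06). Their limma adjusted p-values were 0.334, 0.368 and 0.373.

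Of 17 other sensors and regulators, 9 were lower and 6 higher, but 7 and 10 after quantile normalization or cyclic loess. Wfs1, the ER membrane protein wolframin, whose loss causes deafness with diabetes, read 7.84, 8.05 and 7.94 in the knockout and 8.11, 8.22 and 8.19 in the wild-type. The groups did not overlap, and the difference was -0.23 (SE 0.07, adjusted p = 0.286). Ern2, the epithelial form of IRE1, read 6.24, 6.29 and 6.41 against 6.00, 6.15 and 6.09, a difference of 0.23 (SE 0.07, adjusted p = 0.275). Its groups were apart as well. Nck1, an adaptor known to bind PERK, differed by -0.15 (SE 0.06).

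On the side of eIF2, a list of 15 genes held its kinases, subunits of eIF2 and its exchange factor, and regulators of its phosphorylation. Of these 12 were lower, or 8 after either normalization, with a median of -0.047 and no gene at an unadjusted p under 0.05. Eif2ak2, the interferon-induced kinase PKR, differed by -0.15 (SE 0.09). Other bZIP factors differed in both directions. Jun read 8.80, 9.08 and 8.88 in the knockout and 8.65, 8.54 and 8.69 in the wild-type (difference 0.29, SE 0.08, adjusted p = 0.272), and Nupr1 differed by -0.18 (SE 0.09). Nfe2l2, the gene of NRF2, which PERK is known to phosphorylate, differed by -0.24 (SE 0.06, adjusted p = 0.241).

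The other ATF4 targets also differed in both directions. Of 12 genes of tRNA charging and export 10 were lower, with a median of -0.067, or 7 after quantile normalization and 8 after cyclic loess, led by Gars at -0.13 and the tRNA exporter Xpot at -0.12. Of 19 genes of amino acid synthesis and transport 10 were lower and 8 higher, but 7 and 12 after either normalization. Slc7a11, the cystine transporter, read 9.88, 9.68 and 9.80 in the knockout and 9.61, 9.57 and 9.46 in the wild-type (difference 0.24, SE 0.07, adjusted p = 0.278). Of 11 signalling and growth arrest targets 5 were lower and 6 higher, but 3 and 8 after either normalization. Gadd45a differed by 0.21 (SE 0.06), Bbc3, which encodes the pro-apoptotic protein PUMA, by 0.15 (SE 0.06), and Ddit4, an inhibitor of mTORC1, by -0.17 (SE 0.08).

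**Figure D5:**
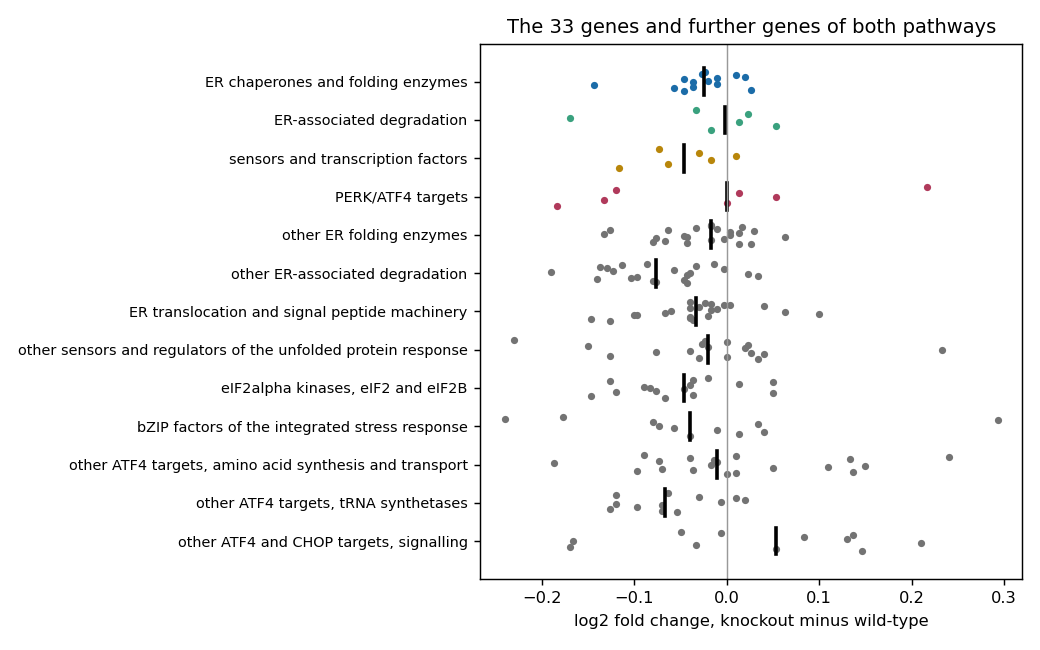
Log2 fold change, knockout minus wild-type (x axis), of the 33 genes by role (coloured) and of further genes of both pathways by list (grey), with 1 point per gene and a black bar for the list's median. The medians run from -0.077 for other degradation genes to 0.053 for signalling targets, and all points lie between -0.24 and 0.29.

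Some lists of markers of other cells and of sample make-up also differed between the genotypes, and their part in the values above was not tested. No gene of the marker lists was called. The smallest limma adjusted p among them was 0.053, for an interferon-stimulated gene. Of all genes 53.8% were lower in the knockout. The labelled tissue was checked on 15 hair cell and 17 supporting cell markers, whose mean signals ran from 6.03 (Myo15) to 9.95 (Atp2b2) and from 6.07 (Tecta) to 11.65 (Epyc). For hair cells the list means spanned 7.633 to 7.669 in the knockout and 7.599 to 7.628 in the wild-type, so the groups were narrowly apart. For supporting cells they spanned 8.83 to 8.88 and 8.79 to 8.83. The median differences of the lists were 0.053 and 0.05, or 0.043 and 0.098 when set against the genes' own level groups. All 8 osteoblast markers, of a cell type rich in ER, were higher in the knockout, with list means of 8.97 to 9.44 against 8.93 to 9.11. The mean difference of that list was 0.18, and 0.045 without knockout replicate 1. Of 16 skeletal muscle markers 14 were higher, with 6.56 to 6.74 against 6.41 to 6.52, a mean difference of 0.17, and 0.11 without knockout replicate 2. Of 9 plasma cell markers, another secretory cell, 8 were higher, with 5.52 to 5.54 against 5.39 to 5.45. These markers were dim, with mean signals of at most 6.50 (Mzb1), below the array medians. Their median difference of 0.09 was 0.037 when set against the genes' own level groups, and 0.062 after quantile normalization. Of 7 blood markers 6 were higher and 1 lower, with a median difference of 0.12, or 0.075 after quantile normalization. The lists of fibrocytes and fibroblasts, macrophages, and neurons and glia had medians of -0.013, -0.042 and -0.0033. Lower in the knockout were 14 of 15 interferon-stimulated genes, at 6.10 to 6.15 against 6.36 to 6.64, and all 3 Y-linked genes, at 7.39 to 7.58 against 7.65 to 8.05. Both lists were included because they had differed between the genotypes in earlier results of these data, so their difference here is no separate finding. A fit that adjusted for the Y-linked signal called no gene, and Asns, Herpud1 and Atf4 stood at -0.24, -0.27 and -0.13.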

How the data were processed

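The authors deposited log2 probe set values for 6 arrays of an Affymetrix mouse gene ST kit, per the labels' protocols, made with the Affymetrix Expression Console (no version) per the submitters' processing notes. Summarization and normalization steps were not given in the sources used here. Of 35557 probe sets 21789 had 1 gene symbol in the platform annotation, and symbols were updated by gene identifier (21698 matched). The brightest probe set per gene was kept. Members, gene lists and promoter motifs were chosen with earlier results of these data known. Array values are given for the sensors and factors, Hspa5, Asns, Trib3, Chac1, members at an unadjusted p under 0.05 and the largest difference of each role, and up to 4 genes of each further list were named by smallest p; Dnajb11 and Derl3 were singled out after their values were seen.

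The genotype difference was fitted by limma 3.58.1 under R 4.3.3 (linear model with empirical Bayes, 4 residual and 4.59 prior degrees of freedom, median SE 0.069), a procedure tested on simulated data. The number of arrays limits the precision. Alternatives were filters on dim genes, other normalizations and probe set rules, an intensity trend, the mean of 3 Y-linked genes as a covariate, the replicate number as a block, and each array left out. Applying them to the further lists, marker lists and promoter groups was added after the values were seen. The labels do not tie equal replicate numbers together. Promoter windows came from RefSeq (GRCm38.p6).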

Additional observations from a re-analysis of the deposited data

How the results depend on the processing

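No member was called under any of the 16 alternatives, and the smallest member adjusted p over them was 0.073 (Asns, with an intensity trend and robust priors). Asns was the 1 member at an unadjusted p under 0.05 in all of them. A member's difference smaller than its SE was given no direction, and sign changes met only such members. Among them were 12 with quantile normalization, 10 with cyclic loess and 7 with the Y-linked covariate. The 12 count Creld2, which lost its difference there and did not take the other sign. The median over all genes moved from -0.01 to 0.0022 with quantile normalization.

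All genes called numbered 7 in the main analysis, 20 above the 25th percentile of level, 45 above the median, 112 with an intensity trend and 0 with the Y-linked covariate, and 2 to 6 with 1 array left out (2 without wild-type replicate 1 or 2, 3 without knockout replicate 3). Members at an unadjusted p under 0.05 numbered 3 in the main analysis, 1 with quantile normalization and 1 with cyclic loess, and 1 to 4 with 1 array left out. The median of the chaperones was 0.016 with cyclic loess and -0.051 to 0.0050 with 1 array left out. That of the sensors and factors was -0.0079 with quantile normalization, -0.011 with cyclic loess and -0.0059 with the Y-linked covariate, and -0.072 to -0.030 with 1 array left out. The degradation genes were at -0.10 with the Y-linked covariate and at -0.042 to 0.010 with 1 array left out. The PERK/ATF4 targets were at -0.078 with the Y-linked covariate and -0.040 to 0.020 with 1 array left out. Above the median level the targets were at -0.13, where Trib3, Chac1, Sesn2 and Shmt2 were dropped, which leaves 3. Since every knockout array was below every wild-type array in Y-linked signal, that covariate and the genotype cannot be told apart. The cause of the other shifts was not tested.

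With the replicate block the fit called 1 gene and no member, and 3 members were at an unadjusted p under 0.05, Herpud1, Trib3 and Asns. Deviations of equally numbered arrays from their group means correlated at 0.076, 0.019 and -0.0094. The best correlations with another number were 0.038, 0.0096 and 0.093. No strong effect common to equal numbers was seen, but 3 arrays per group cannot decide whether the samples are paired, and the labels do not say.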

Other observations

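Hspa5, Pdia3, Chac1 and Trib3 lie on chromosome 2, as Pjvk does, at 226, 532, 487 and 794 tested genes from it in gene order. Their differences were -0.020, 0.020, 0.00 and 0.22, and the other 29 members lie on other chromosomes.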
